A study of Mus musculus with 6 samples.

Results

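TRBV16 is a variable (V) segment of the mouse T-cell receptor beta locus, encoded by the gene Trbv16 and called Vbeta11 in the older nomenclature. Its rearrangements were taken as all listed sequences whose V call was TRBV16, which was 1 name out of 29 V names. They made up 236 of 4238 distinct nucleotide rearrangements and 375 of 7043 templates (the deposited count). The other 4002 rearrangements, with 6668 templates, used 28 other V segments and served as the comparison.

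The rearrangements came from T follicular regulatory (Tfr) cells, sorted as CD4 T cells from the spleens of 3 mice of the Foxp3GFP genotype. From each mouse there is a superior and an inferior sample, words that the labels define no further. All 6 samples were genomic DNA, amplified by the survey protocol of the immunoSEQ assay for mouse TCRB, and the labels give no treatment, age or strain. The samples held 667 to 1855 templates, a DNA count carries no marker by which the sort could be checked, and the deposited count is called templates here although it is not stated whether it counts molecules or reads.

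A beta chain is built by joining 1 V, 1 diversity (D) and 1 joining (J) segment, with bases trimmed and added at each junction, and the joined stretch encodes the complementarity-determining region 3 (CDR3), the loop that lies over the presented peptide. The 2 D segments, TRBD1 and TRBD2, each lie before their own cluster of J segments, TRBJ1 and TRBJ2. TRBD1 can join either cluster, while TRBD2 as a rule joins TRBJ2. T cells with Vbeta11 chains are known for their reactivity to superantigens encoded by endogenous mouse mammary tumor viruses, which depends on the class II molecule I-E, and they are deleted in strains that carry both. The I-E type of these mice is not in the labels.

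The sequences below are the leading forms of the TRBV16 clonotypes (rearrangements with the same CDR3 nucleotides and J segment, merged) with 6 or more templates in a mouse, shown because they are the largest clones. Each was read over 87 bases that end 1 codon before the end of the CDR3. The capitals mark the CDR3, 5′ to 3′.
TRBV16 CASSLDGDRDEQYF TRBJ2-7, mouse 1: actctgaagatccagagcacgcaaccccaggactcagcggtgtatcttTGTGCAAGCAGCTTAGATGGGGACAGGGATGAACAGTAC
TRBV16 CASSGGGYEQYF TRBJ2-7, mouse 2: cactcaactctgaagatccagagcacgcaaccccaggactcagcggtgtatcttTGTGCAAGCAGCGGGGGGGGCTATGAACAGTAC
TRBV16 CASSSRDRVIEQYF TRBJ2-7, mouse 3: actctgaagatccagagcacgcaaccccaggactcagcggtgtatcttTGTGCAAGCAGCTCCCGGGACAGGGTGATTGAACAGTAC
TRBV16 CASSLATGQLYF TRBJ2-2, mouse 3: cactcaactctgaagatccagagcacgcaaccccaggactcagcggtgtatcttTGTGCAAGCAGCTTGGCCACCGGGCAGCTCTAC
TRBV16 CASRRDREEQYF TRBJ2-7, mouse 3: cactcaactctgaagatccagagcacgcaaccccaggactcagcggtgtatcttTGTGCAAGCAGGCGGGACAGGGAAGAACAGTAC
All 5 share the bases before the CDR3 and differ within it. The third clonotype was also listed in 3 further forms that share its CDR3, and these are printed with the repeats.

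TRBV16 lies on chromosome 6 at 41151791 to 41152230 (GRCm38.p6, the assembly of mm10), a stretch of 440 bases between TRBV15 and TRBV17. In the superior samples of mice 1, 2 and 3 it held 6.45% (95% Wilson interval 4.82 to 8.57), 5.21% (4.04 to 6.68) and 4.93% (3.82 to 6.35) of templates. In the inferior samples it held 4.16% (3.23 to 5.35), 3.91% (2.84 to 5.37) and 6.79% (5.73 to 8.03). The groups overlapped: TRBV16 was higher in the superior sample in mice 1 and 2 and lower in mouse 3, whose inferior sample had the highest share of all. These intervals, like all others given here, cover counting error only.

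**Figure D1:**
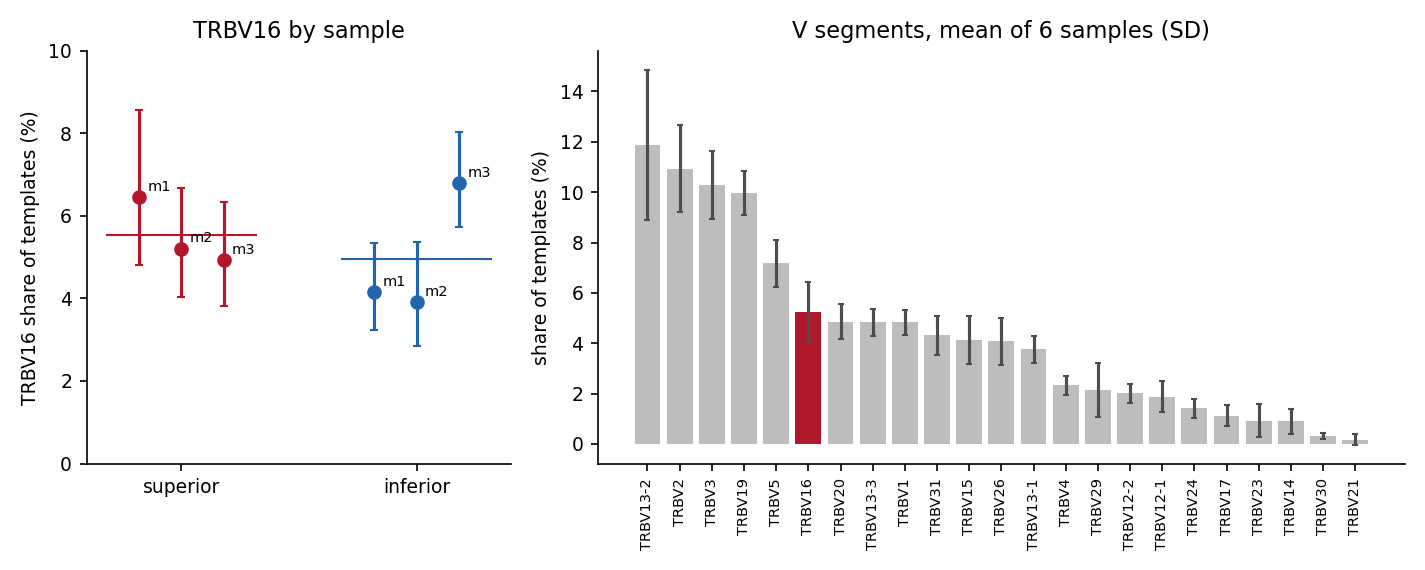
Left, share of templates (%) that used TRBV16 in each sample of mice 1 to 3 (m1 to m3), with 95% Wilson intervals and lines at the group means of 5.53% and 4.96%. Right, mean share of templates (%) of each V segment over 6 samples with its SD, where TRBV16 (red) ranks 6, beside TRBV20, TRBV13-3 and TRBV1.

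The mean share of the superior samples was 5.53% ± 0.808 (SD, n = 3) and that of the inferior samples 4.96% ± 1.60 (n = 3), a difference within the spread between samples (exact permutation p = 0.6, smallest possible 0.1). edgeR's quasi-likelihood test, fitted over V segments with Benjamini-Hochberg adjustment, gave a log2 difference of 0.10 (SE 0.25, adjusted p = 0.933). Of 23 V segments it called 0 (0%), and 1 had an unadjusted p under 0.05. DESeq2 called 0 as well, and none (0) had an unadjusted p under 0.05. Without mouse 1 the log2 difference turned to -0.13. With the mouse as a block, since the mouse number pairs the samples, it was 0.14 (SE 0.25, edgeR adjusted p = 0.917). The samples are few, and p-values measure only the spread between these samples, which come in pairs from the same animal.

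Over the 6 samples TRBV16 ranked 6 among the V segments, with a mean of 5.24% ± 1.17 (SD, n = 6). It stood below TRBV5 with 7.17% ± 0.937 and next to TRBV20 with 4.86% ± 0.706, TRBV13-3 with 4.83% ± 0.542 and TRBV1 with 4.82% ± 0.493. The gap to these 3 was smaller than the SD of TRBV16 itself. Among other segments known for I-E dependent reactivity to viral superantigens, TRBV15 held 4.13% ± 0.942, TRBV12-2 2.01% ± 0.380 and TRBV12-1 1.89% ± 0.628. The templates of V segments in a sample add up to its total, so shares are not independent of each other. The segments whose log2 share varied most like that of TRBV16 over the 6 samples were TRBV1 (Pearson's r 0.865), TRBV29 (0.834), which RefSeq lists as a pseudogene, and TRBV31 (0.752).

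Further features of TRBV16 were compared between superior and inferior samples by exact permutation. Its smallest possible p is 0.1, so none of them could pass 0.05. For these values, TRBV16 rearrangements with the same CDR3 nucleotides and J segment in a sample were merged into 1 clonotype. A clonotype found in both samples thus counts once in each. Where both samples of a mouse were summed, merging was within the mouse. The superior samples of mice 1, 2 and 3 then held 25, 34 and 36 TRBV16 clonotypes, and the inferior samples 28, 22 and 58. Templates per superior clonotype were 1.65 ± 0.0852 and per inferior clonotype 1.95 ± 0.279 (SD, n = 3 each, exact permutation p = 0.3). The mean CDR3 length was 13.77 ± 0.452 and 13.99 ± 0.167 residues (n = 3 each, exact permutation p = 0.5). The share of TRBV16 templates joined to the TRBJ2 cluster was 74.3% ± 4.65 and 78.6% ± 3.48 (n = 3 each, exact permutation p = 0.2), and the superior value was the lower of the pair in 3 of 3 mice. Single-template clonotypes made up 59.6% ± 4.0 and 60.0% ± 15.3 of TRBV16 clonotypes (n = 3 each, exact permutation p = 0.9). With Benjamini-Hochberg adjustment over the 6 values tested this way, the smallest adjusted p was 0.72. Depth was not adjusted for, and in each mouse the sample with more templates in total had more templates per TRBV16 clonotype. These were the inferior samples of mouse 1 (2.04 against 1.72) and mouse 3 (2.17 against 1.56) and the superior sample of mouse 2 (1.68 against 1.64).

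Joined J segments were next compared between TRBV16 and all other V segments of the same mice, with both samples of a mouse summed. TRBJ1-2 was rare with TRBV16: 2 of 375 templates used it, 1 from mouse 1 (inferior) and 1 from mouse 2 (superior). Its share of TRBV16 templates was 1%, 1.08% and 0% in mice 1, 2 and 3, the last being 0 of 182 templates, which allows up to 1.65%. Its share of the templates of other V segments was 4.08%, 5.57% and 6.99%. The values did not overlap, with means of 0.692% ± 0.600 and 5.55% ± 1.45 (SD, n = 3 mice). edgeR's quasi-likelihood test with the mouse as a term gave a log2 difference of -3.41 (SE 0.76, Benjamini-Hochberg adjusted p = 0.00192).

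TRBJ1-2 (chromosome 6, 41534001 to 41534048) was the 1 J segment called of 12 tested (8.33%, 3 at unadjusted p under 0.05), and DESeq2 also called 1. The call was lost without any 1 mouse, with log2 differences of -4.08 (edgeR adjusted p = 0.0535) without mouse 1, -4.03 (0.0550) without mouse 2 and -2.20 (0.289) without mouse 3, and with TMM scaling 2 segments were called. With each clonotype counted once the difference was -2.37 (edgeR adjusted p = 0.0206), from 1.26% ± 1.09 of TRBV16 clonotypes and 5.29% ± 0.638 of the others. Both TRBV16 rearrangements with TRBJ1-2 had 1 template, and they are printed because they are all that was found. The capitals mark the CDR3.
TRBV16 TRBJ1-2 clonotype of 15 residues, mouse 1: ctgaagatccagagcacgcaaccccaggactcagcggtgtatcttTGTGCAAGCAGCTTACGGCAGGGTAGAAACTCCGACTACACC
TRBV16 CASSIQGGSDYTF TRBJ1-2, mouse 2: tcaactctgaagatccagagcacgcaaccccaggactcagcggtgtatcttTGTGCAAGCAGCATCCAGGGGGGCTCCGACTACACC
Among the 18 V segments with 50 or more clonotypes, TRBJ1-2 was used by 2 of 194 TRBV16 clonotypes, 1.03% (95% Wilson interval 0.283 to 3.68). TRBV12-1 had 0 of 77, and TRBV5 stood next above TRBV16 with 2.17%. At the other end were TRBV29 with 11.1% and TRBV31 with 11.8%. TRBV20, TRBV13-3 and TRBV1, the segments of similar total share, had 5.47%, 4.06% and 3.94%. Among V segments TRBV16 was therefore low in TRBJ1-2 but not the lowest, and its interval overlapped the value of TRBV5.

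**Figure D2:**
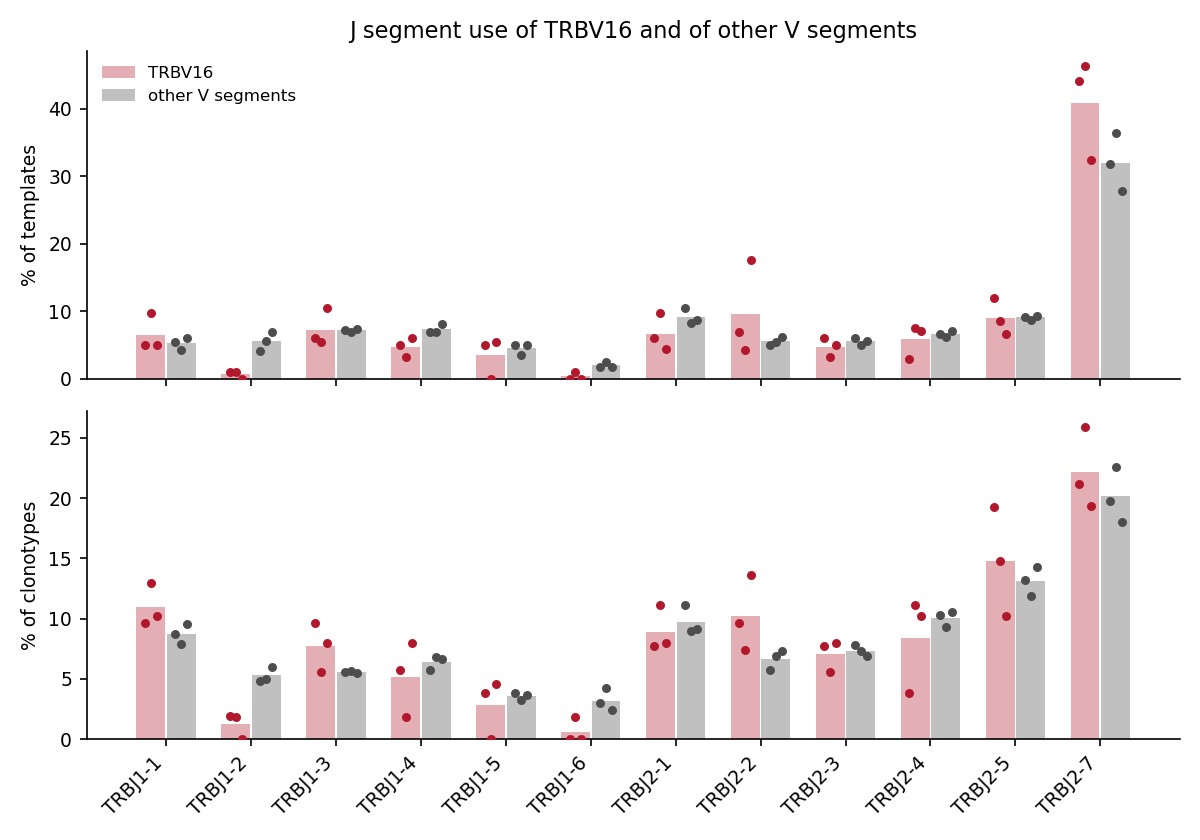
Share (%) of each J segment among TRBV16 (red) and other V segments (grey), by templates (top) and by clonotypes (bottom), with bars at the mean of 3 mice and points for the mice. By templates, the TRBV16 points of TRBJ1-2 (0% to 1.08%), TRBJ1-4 (3.23% to 6.04%) and TRBJ1-6 (0% to 1.08%) lie below all points of the other V segments.

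The other J segments did not pass the test. Of the 12 tested, TRBJ1-2, TRBJ1-6 and TRBJ1-4 had TRBV16 shares of templates below those of other V segments in all 3 mice without overlap. TRBJ1-6 was used by 1 TRBV16 template, with a mean share of 0.358% ± 0.621 against 1.99% ± 0.400 (log2 difference -2.80, edgeR adjusted p = 0.0805). TRBJ1-4 had a log2 difference of -0.58 (edgeR adjusted p = 0.322), and with each clonotype counted once it was -0.19 (edgeR adjusted p = 0.876). By clonotypes TRBJ1-4 overlapped, with 5.77%, 1.85% and 7.95% in mice 1, 2 and 3 against 5.76%, 6.83% and 6.67% with other V segments. The largest positive difference was that of TRBJ2-2, with 7%, 4.30% and 17.6% of TRBV16 templates in mice 1, 2 and 3, where other V segments had a mean of 5.58% ± 0.555 (log2 difference 0.89, edgeR adjusted p = 0.0805). It rested on mouse 3, and without that mouse the difference was 0.11. With TMM scaling TRBJ2-2 passed the test (log2 difference 0.99, edgeR adjusted p = 0.0463). TRBJ1-1 had a log2 difference of 0.22, which turned to -0.22 without mouse 2.

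TRBJ2-7 was the J segment joined most often to TRBV16, as it was to other V segments. It held 44.0%, 46.2% and 32.4% of TRBV16 templates in mice 1, 2 and 3, and 31.8%, 36.4% and 27.8% of the templates of other V segments. It was higher with TRBV16 in 3 of 3 mice, with a log2 difference of 0.34 that did not pass the test (edgeR adjusted p = 0.322). By clonotypes the shares were 22.1% ± 3.41 and 20.1% ± 2.29 (SD, n = 3), and without the largest TRBV16 clonotype of each mouse TRBJ2-7 held 30.9%, 38.3% and 29.3% of TRBV16 templates. TRBV16 clonotypes with TRBJ2-7 had 3.48 templates each on average (42 clonotypes), against 1.51 for those with any other J segment (152 clonotypes). Other V segments had 2.92 and 1.57, so larger counts with TRBJ2-7 were seen on both sides of the comparison.

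Summed over its segments, the TRBJ2 cluster held 78.0%, 79.6% and 73.1% of TRBV16 templates in mice 1, 2 and 3, against 69.4%, 70.1% and 64.9% with other V segments. The difference of 8.75 ± 0.622 percentage points (SD, n = 3) had the same direction in 3 of 3 mice, with an exact permutation p of 0.25, the smallest that 3 mice allow (adjusted over 8 such values, 1). Taking the 6 samples as separate pairs, 2 from each mouse, the difference was 8.12 points, in the same direction in 6 of 6 (exact permutation p = 0.03125, the smallest possible). This p takes both samples of a mouse as independent although they share the animal. By clonotypes it was 4.32 ± 4.12 points, and without the largest TRBV16 clonotype of each mouse 5.61 points. The samples differed in its size: TRBV16 exceeded the other V segments by 4.55, 7.27 and 1.03 points in the superior and by 11.5, 12.2 and 12.1 points in the inferior samples of mice 1, 2 and 3. The groups did not overlap, and the exact permutation p of 0.1 is the smallest possible (adjusted over 8 values, 0.8). In the inferior samples of mice 1 and 2, 1 clonotype with TRBJ2-7 held 24.6% and 22.2% of TRBV16 templates. The largest clonotype held 11.6% and 7.02% in their superior samples, and in mouse 3 it held 6.35% (inferior) and 5.36% (superior). Whether this split between groups holds without the largest clonotypes was not tested. Over all clonotypes of a segment, the TRBJ2 cluster made up 71.1% with TRBV16, which ranked 4 of 18 V segments. TRBV4 had 74.5%, TRBV13-2 73.0% and TRBV15 71.3%, while TRBV12-2 stood next below with 70.7% and TRBV20 was lowest with 58.7%. High use of TRBJ2 was thus not particular to TRBV16.

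TRBD2 was assigned mostly to rearrangements with TRBJ2. Of 66 TRBV16 rearrangements joined to TRBJ1, 46 were assigned TRBD1, 2 TRBD2 and 18 neither. Of 180 joined to TRBJ2, 47 were assigned TRBD1, 88 TRBD2 and 45 neither, where a rearrangement found in both samples counts once in each. Among templates with a resolved D segment, TRBD2 made up 47.0% ± 7.96 with TRBV16 and 43.6% ± 4.05 with other V segments (SD, n = 3, exact permutation p = 0.5). Within the TRBJ2 cluster the shares were 58.6% ± 7.71 and 58.5% ± 2.40. D use of TRBV16 thus showed no difference beyond the spread between mice.

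No CDR3 length passed the test. TRBV16 clonotypes had CDR3s of 11 to 17 residues, counted from the conserved cysteine to the conserved phenylalanine. Of 194 clonotypes, 61 had 14 residues, 50 had 13 and 34 had 15. Lengths of 13 made up 26.0% ± 2.53 of TRBV16 and 23.0% ± 2.10 of other clonotypes, lengths of 14 31.6% ± 3.26 and 29.8% ± 1.89, and lengths of 15 17.2% ± 3.64 and 20.6% ± 0.721 (SD, n = 3). edgeR's quasi-likelihood test called 0 of 9 lengths (0%), with 0 at unadjusted p under 0.05. The mean length was 13.90 ± 0.253 residues with TRBV16 and 13.81 ± 0.0357 with other V segments (exact permutation p = 0.75). Over all clonotypes of a segment it ranked 6 among 18 V segments, between TRBV5 with 14.34 and TRBV20 with 13.14 residues.

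**Figure D3:**
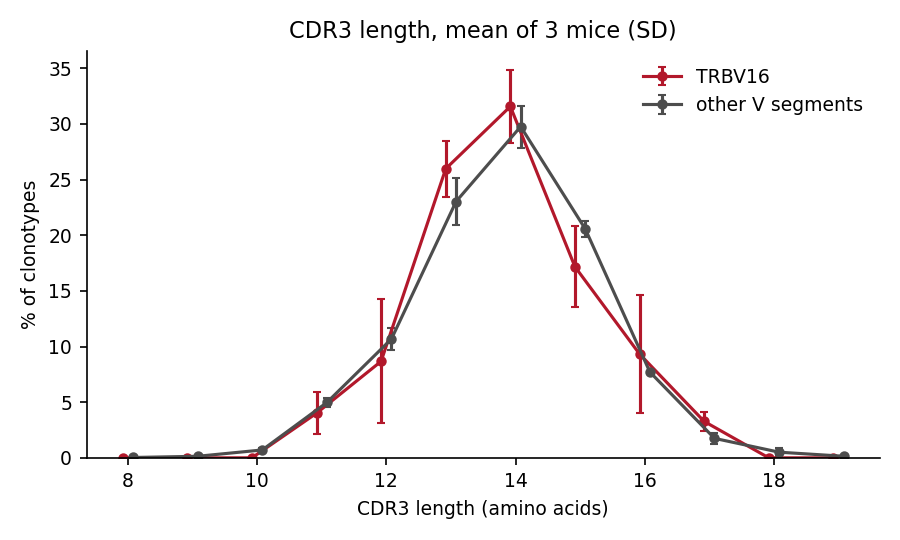
Share of clonotypes (%) by CDR3 length in amino acids, for TRBV16 (red) and other V segments (grey), as the mean of 3 mice with its SD. Both curves peak at 14 residues, with 31.6% of TRBV16 and 29.8% of other clonotypes.

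Residues of the CDR3 differed at position 5, counted from the cysteine as position 1, the 1 position tested on its own. Positions 1 to 4 were nearly fixed in TRBV16: 188 of 194 clonotypes (96.9%) began with CASS, 4 with CASR, 1 with CASK and 1 with CASC. The CASC clonotype, with 1 template in mouse 2, differed by 1 base from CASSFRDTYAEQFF, which had 2 templates in the same sample. Merging by exact CDR3 nucleotides keeps such pairs apart. At position 5, leucine was found in 50.0%, 40.7% and 54.5% of TRBV16 clonotypes of mice 1, 2 and 3, and in 21.6%, 18.1% and 18.5% of other clonotypes. The values did not overlap, with a log2 difference of 1.35 (SE 0.17, edgeR adjusted p = 2.1e-08). Phenylalanine stood at 9.16% ± 3.32 against 1.97% ± 0.456 (log2 difference 2.15) and serine at 10.8% ± 3.58 against 3.47% ± 0.975 (1.56).

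Glutamine and aspartate, which are common at position 5 with other V segments, were rare there with TRBV16. Glutamine stood at 1.02% ± 0.967 against 14.9% ± 1.54 (log2 difference -3.86) and aspartate in 0.996% ± 0.934 against 12.2% ± 1.03 (-3.56). Isoleucine stood at 0.996% ± 0.934 against 5.29% ± 0.861 (-2.33) and glycine at 2.39% ± 0.879 against 6.50% ± 0.408 (-1.35, edgeR adjusted p = 0.0361). The glycine call was lost when residues were weighted by templates (log2 difference -0.39, edgeR adjusted p = 0.611) and without any 1 mouse (edgeR adjusted p = 0.111 to 0.123). Glutamate was at position 5 in 0 of 194 TRBV16 clonotypes and in 3.88% of all other clonotypes. The 0 allows up to 1.55%, a limit for counting error that pools the clonotypes of 3 mice. Of 19 residues tested at position 5, 8 were called (42.1%, 3 higher and 5 lower), so a call there is not special to leucine. Without mouse 3, which holds the most TRBV16 clonotypes, 0 of 18 were called, with 6 at unadjusted p under 0.05 and a log2 difference of 1.19 for leucine (edgeR adjusted p = 0.0684).

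Leucine at position 5 is shared by many V segments. It was found in 49.5% of all TRBV16 clonotypes, in 63.6% of TRBV24, 62.1% of TRBV26, 56.5% of TRBV12-2, 50.3% of TRBV3, 48.7% of TRBV31, 48.0% of TRBV12-1 and 47.7% of TRBV15 clonotypes. The lowest shares were 0.503% in TRBV1 and 1.22% in TRBV13-2. TRBV16 thus ranked 5 of 18 V segments, inside a group of segments with similar values.

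At the nucleotide level, the TRBV16 CDR3 held a common start. Its commonest bases are shown because they show how far clonotypes share their start, with bases 13 to 17, which fewer clonotypes share, in capitals.
TRBV16 CDR3, bases 1 to 17: tgtgcaagcagcTTAGA
The first 12 bases, through the codons of CASS, matched these in 184 of 194 clonotypes (94.8%). Bases 1 to 13 all matched in 133 (68.6%), 1 to 15 in 85 (43.8%), 1 to 16 in 72 (37.1%) and 1 to 17 in 42 (21.6%). Only 10 clonotypes (5.15%) also matched the commonest base at position 18. The bases TTA encode leucine, and the following GA begins the codons of aspartate and glutamate. CASSL began 96 TRBV16 clonotypes, CASSLD 24, CASSLG 21 and CASSLE 18. The germline sequence of TRBV16 was not used here, so the end of the V segment is given only as the commonest bases.

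**Figure D4:**
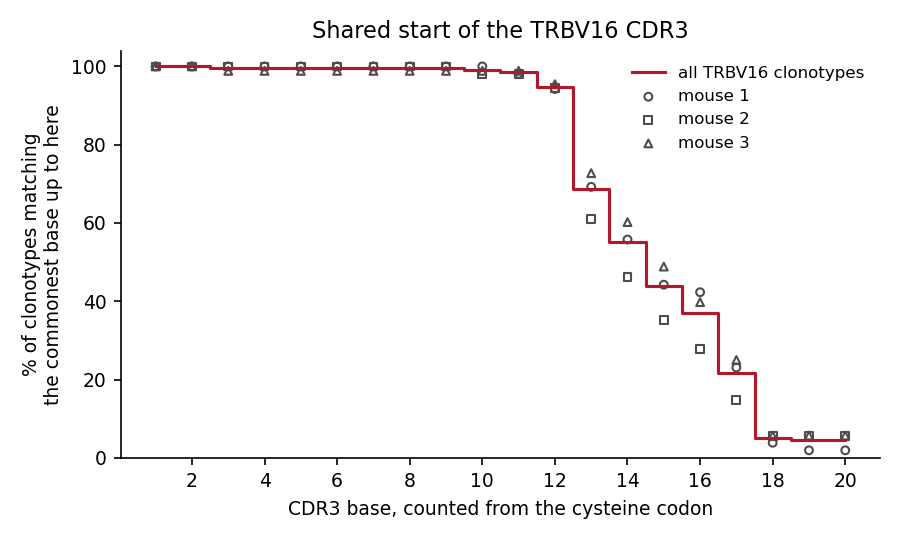
Share of the 194 TRBV16 clonotypes (%) that match the commonest base at every CDR3 base up to the one shown, for all mice (line) and for each mouse (symbols). The share stays at 94.8% or higher through base 12, then falls to 21.6% at base 17 and 5.15% at base 18.

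Inside the loop, from position 5 to 5 residues before the last, leucine made up 13.5% ± 2.62 of TRBV16 residues against 6.56% ± 0.588 (SD, n = 3; log2 difference 1.09, SE 0.15, edgeR adjusted p = 3.9e-07). Glutamine made up 5.01% ± 0.600 against 8.87% ± 0.620 (log2 difference -0.85, SE 0.20, edgeR adjusted p = 0.00157). These were the 2 called of 19 residues (10.5%, 5 at unadjusted p under 0.05). Counted from position 6 onwards edgeR called 0, with 0 at unadjusted p under 0.05, and from position 7 onwards 0, with 2 at unadjusted p under 0.05. Without mouse 2 it also called 0, with 3 at unadjusted p under 0.05. Of the starts at positions 5, 6 and 7, the one that counted position 5 was thus the one at which residues passed the test. The leucine difference stayed positive from the later starts, at 0.58 from position 6 (edgeR adjusted p = 0.398) and 0.84 from position 7 (edgeR adjusted p = 0.259).

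Clone sizes of TRBV16 were close to those of other V segments. Of its 194 clonotypes, 108 (55.7%) had 1 template in a mouse, 78 had 2 to 4, 6 had 5 to 9 and 2 had 10 or more. Of other clonotypes 57.1% had 1 template, 38.3% 2 to 4, 4.09% 5 to 9 and 0.552% 10 or more. Templates per clonotype were 1.9 ± 0.174 with TRBV16 and 1.85 ± 0.0705 with other V segments (SD, n = 3 mice, exact permutation p = 0.75). Single-template clonotypes made up 57.4% ± 8.42 and 57.2% ± 2.16 (exact permutation p = 1).

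The largest clonotype, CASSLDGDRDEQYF with TRBJ2-7, had 19 templates in mouse 1, 5 in the superior sample (0.750% of its templates, 95% Wilson interval 0.321 to 1.74) and 14 in the inferior sample (1.02%, 0.610 to 1.71). These intervals overlap. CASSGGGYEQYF with TRBJ2-7 had 12 templates in mouse 2, of which 4 were superior and 8 inferior. The next were all in mouse 3. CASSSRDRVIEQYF had 8 templates in the inferior sample and 0 in the superior one, which allows up to 0.264%, and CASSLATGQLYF with TRBJ2-2 had 1 and 7. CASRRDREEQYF had 6 templates, and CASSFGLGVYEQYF and 2 clonotypes with CDR3s of 15 residues had 5 each, all with TRBJ2-7 and in the inferior sample only. Their inferior shares were 0.323% (95% Wilson interval 0.148 to 0.704) at 6 templates and 0.270% (0.115 to 0.629) at 5. Both intervals reach below the 0.264% that 0 superior templates allow. A clonotype of 15 residues with TRBJ2-2 had 3 superior and 1 inferior template, and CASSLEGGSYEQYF with TRBJ2-7 had 4 in the inferior sample of mouse 1. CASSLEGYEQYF in mouse 2, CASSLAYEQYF in mouse 3 and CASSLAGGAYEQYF in mouse 1 were tied with these last at 4 templates. Of these clonotypes, the largest held 24.6% of TRBV16 templates in the inferior sample of mouse 1.

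The share of TRBV16 clonotypes found in both samples of a mouse lay close to that of others. It was 9 of 194 (4.64%, 95% Wilson interval 2.46 to 8.58), against 148 of 3622 (4.09%). Mice 1, 2 and 3 contributed 1, 2 and 6 of the 9, and together these clonotypes held 57 templates, 15.2% of TRBV16. The smaller ones, with 3 templates each in mouse 3, were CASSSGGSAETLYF with TRBJ2-3, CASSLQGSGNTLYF with TRBJ1-3, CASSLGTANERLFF with TRBJ1-4 and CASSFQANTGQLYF with TRBJ2-2, and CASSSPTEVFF with TRBJ1-1 had 2 in mouse 2. The mean over mice was 4.15% ± 2.48 with TRBV16 and 4.14% ± 0.965 with other V segments (SD, n = 3, exact permutation p = 1). The share of templates in such clonotypes was 15.7% ± 2.97 and 11.3% ± 4.61 (exact permutation p = 0.5).

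Between mice, 1 of 192 TRBV16 clonotypes defined by CDR3 amino acids and J segment was shared (0.521%, 95% Wilson interval 0.092 to 2.89), against 29 of 3559 others (0.815%). By CDR3 nucleotides 0 of 194 were shared, with an upper Wilson limit of 1.94%, against 9 of 3613. The shared CDR3, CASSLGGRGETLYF with TRBJ2-3, had 1 template in the superior sample of mouse 2 and 1 in the inferior sample of mouse 3. Its forms are printed because the same residues were written with different bases, with the CDR3 in capitals.
TRBV16 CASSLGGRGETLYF TRBJ2-3, mouse 2: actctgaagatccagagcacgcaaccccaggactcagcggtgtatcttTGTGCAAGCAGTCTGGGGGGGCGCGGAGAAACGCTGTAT
TRBV16 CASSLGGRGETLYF TRBJ2-3, mouse 3: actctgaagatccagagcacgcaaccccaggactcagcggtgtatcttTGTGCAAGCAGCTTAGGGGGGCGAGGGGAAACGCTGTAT
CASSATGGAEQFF was the other TRBV16 CDR3 with 2 nucleotide forms. Both had 1 template in the superior sample of mouse 3 and differed by 1 base, in the cysteine codon. The CDR3s were not all restricted to TRBV16: 12 of 192 were also listed with another V segment, among them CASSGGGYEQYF with TRBV13-1, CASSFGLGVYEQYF with TRBV15 and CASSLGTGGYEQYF with TRBV5, TRBV15, TRBV19, TRBV26 and TRBV29. The J segments of those matches were not compared. The same share for CDR3s of other V segments was not worked out, so the 12 cannot be called many or few.

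TRBV16 clonotypes were listed as more than 1 distinct rearrangement more often than most. Merging took the 236 listed rearrangements to 194 clonotypes, of which 40 (20.6%, 95% Wilson interval 15.5 to 26.9) had been listed more than once. For other V segments it was 336 of 3622 (9.28%). In mice 1, 2 and 3 the share was 23.1%, 14.8% and 22.7% with TRBV16 and 8.82%, 11% and 8.46% with others. It was higher with TRBV16 in 3 of 3 mice by 10.8 ± 6.05 percentage points (SD, n = 3, exact permutation p = 0.25, the smallest possible, and 1 after adjustment over 8 values). By sample it was higher in 5 of 6, by 8.46 to 16 points, and the difference was -2.96 points in the inferior sample of mouse 2. Among V segments TRBV16 ranked 3 of 18, after TRBV13-2 with 28.6% and TRBV29 with 25% and before TRBV24 with 18.2%, and TRBV20, TRBV13-3 and TRBV1 had 3.96%, 5.08% and 2.96%. Of TRBV16 clonotypes with more than 1 template, 46.5% were listed more than once, against 21.6% of other clonotypes with more than 1 template.

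**Figure D5:**
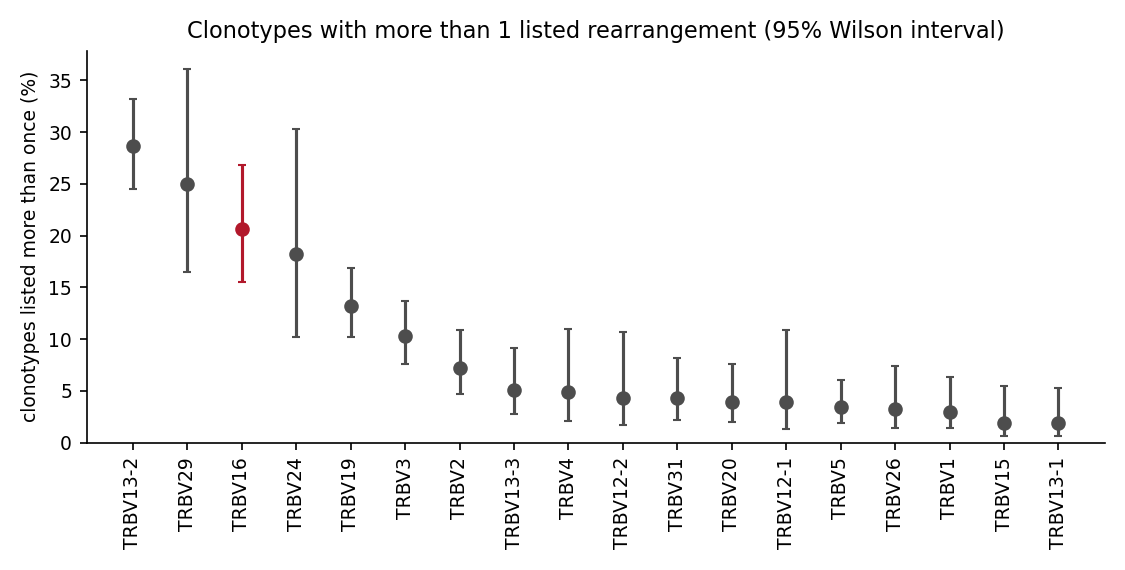
Share of clonotypes (%) listed as more than 1 distinct rearrangement, for the 18 V segments with 50 or more clonotypes, with 95% Wilson intervals. TRBV16 (red) ranks 3 at 20.6%, and the 3 segments of similar template share lie at 2.96% to 5.08%.

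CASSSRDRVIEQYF was listed in 4 forms, and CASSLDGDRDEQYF, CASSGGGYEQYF and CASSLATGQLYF in 2 each. The forms of a clonotype differed before the CDR3. Most TRBV16 forms held a run of 4 C there (208 listings, 337 templates), 37 listings held a run of 3 C, and 1 held 2 C. The listed forms of the clonotypes with the most templates in mice 1 and 3 are printed to show this, with the run of C in capitals.
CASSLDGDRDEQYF, 18 templates: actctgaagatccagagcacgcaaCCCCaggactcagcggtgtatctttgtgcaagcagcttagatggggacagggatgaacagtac
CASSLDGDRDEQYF, 1 template: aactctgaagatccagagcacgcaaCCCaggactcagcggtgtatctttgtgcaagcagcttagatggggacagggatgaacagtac
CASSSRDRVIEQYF, 5 templates: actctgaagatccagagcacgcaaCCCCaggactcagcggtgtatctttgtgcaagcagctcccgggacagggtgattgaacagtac
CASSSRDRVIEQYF, 1 template, 4 C: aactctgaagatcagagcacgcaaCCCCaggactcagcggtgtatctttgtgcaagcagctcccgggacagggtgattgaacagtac
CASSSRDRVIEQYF, 1 template, 4 C: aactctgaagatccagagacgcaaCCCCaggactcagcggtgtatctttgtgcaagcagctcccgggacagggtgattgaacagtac
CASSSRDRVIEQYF, 1 template, 3 C: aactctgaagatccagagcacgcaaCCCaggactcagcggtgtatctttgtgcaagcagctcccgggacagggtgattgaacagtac
Forms with 3 C made up 15.0% of TRBV16 listings and 9.87% of TRBV16 templates. All 37 had 1 template, and all had a form with 4 C and the same CDR3 in the same sample, which, with the 4 C forms of that CDR3 summed, was larger in 30 and of equal size in 7. They were found in every sample, with 5, 6 and 5 in the superior and 7, 2 and 12 in the inferior samples of mice 1, 2 and 3. Counted once per CDR3 and sample, with 4 C forms summed, the share with such a companion was 5.65% (7 of 124) at 1 template, 34.0% (18 of 53) at 2 templates and 46.2% (12 of 26) at 3 or more. Beyond the first form of a clonotype in a sample, all 43 further TRBV16 forms had 1 template, as did all 393 of other V segments, so this was not particular to TRBV16. Whether these forms are separate molecules was not tested. Left unmerged, they turned the difference in templates per clonotype, TRBV16 minus other V segments, from 0.0575 to -0.0917.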

How the data were processed

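The counts were deposited by the authors as whole numbers per distinct nucleotide rearrangement, 1 file per sample, and the deposited productive frequency is a fraction, the count divided by its sample's sum. Per the labels' protocols, genomic DNA of sorted cells was amplified with the immunoSEQ mouse TCRB kit. Build mm10 comes from the submitters' processing notes. Which aligner, caller and filters the authors used is not given in the sources used here. Sums per sample were 667 to 1855 templates. V names were matched to RefSeq symbols (29 of 29, GRCm38.p6).

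Rows of TRBV16 were compared with all other rows of the same mouse. Clonotypes were merged by V segment, CDR3 nucleotides and J segment within a mouse, or within a sample for values given by sample. Counts were tested with edgeR 4.0.16 (R 4.3.3; quasi-likelihood, common dispersion, total counts as library size, features of 10 or more, Benjamini-Hochberg threshold 0.05), with DESeq2 1.42.0 and TMM as alternatives. The edgeR step was tested on simulated data. Single values were compared with two-sided exact permutation tests, over sign changes of 3 mice (smallest p 0.25) or 20 assignments of 3 against 3 (smallest p 0.1), neither of which can reach 0.05. Intervals are 95% Wilson, and a count of 0 was given a limit of 3 counts. Other V rearrangements whose CDR3 did not start with cysteine were left out of CDR3 features, and those without a J call out of J use. Python 3.11.15, numpy 2.4.6, pandas 2.3.3, scipy 1.17.1 and matplotlib 3.10.9 were used.

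The mouse number pairs the samples, as 1 animal gave both. Over V segments, their deviations from the group means had correlations of 0.079, -0.253 and -0.291 in mice 1, 2 and 3. The members and lists were chosen with earlier results of these data known. Named were the J segments, lengths and residues past the test or otherwise the 3 largest rises and falls, the 3 V segments nearest in share and the 3 most like in pattern, the 4 segments of the I-E list, the 10 largest TRBV16 clonotypes (and those tied with them), those shared within or between mice, and those listed in most forms (CDR3s of 15 or more residues are given by length).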

Additional observations from a re-analysis of the deposited data

How the results depend on the processing

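With 3 mice and 375 TRBV16 templates, depth and the number of mice limit all comparisons. The block for the mouse, which pairs the samples, changed no call (log2 difference of TRBV16 0.14). The settings below changed a direction, a call or a count. TMM called 2 J segments, and edgeR called 0 without mouse 1, 2 or 3 (1 to 4 at unadjusted p under 0.05). Residues called inside the loop were 0 from position 6 and 0 from position 7, both chosen after seeing the data, and 0 to 2 without a mouse; at position 5 they were 0 to 7. Taking 6 samples as pairs gave 8.12 points for the TRBJ2 cluster (exact permutation p = 0.03125, which ignores the shared animal). Weighting by templates ended the glycine call at position 5 (-0.39).

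Differences near 0 changed sign. Without a mouse, the log2 V usage difference ranged from -0.13 to 0.50, TRBJ1-1 from -0.22 to 0.57, mean CDR3 length (TRBV16 minus other V segments) from -0.0518 to 0.227, templates per clonotype from -0.0405 to 0.189, single-template clonotypes from -3.16 to 4.37 points (-0.628 without mouse 1), clonotypes in both samples from -1.47 to 0.761 points and clonotypes in another mouse from -1.17 to 0.0243 points. Superior minus inferior, the TRBV16 share ranged from -0.285 to 1.79 points and single-template clonotypes from -11.1 to 6.25 points (3.44 without mouse 1). Templates per clonotype were -0.0917 unmerged, single-template clonotypes -1.82 points against the 3 nearest V segments, and clonotypes in both samples -0.0127 points over 6 pairs and -0.104 points merged by amino acids. The cause was not tested. The position 5 calls lost without mouse 3 and the J call lost without each mouse were fitted on fewer samples.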
